A study of Mus musculus with 4 samples.

Results

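The promoters of the placental prolactin family (Prl), the pregnancy-specific glycoproteins (Psg) and the carcinoembryonic antigen-related cell adhesion molecules (Ceacam) were examined for H3K9me2 in mouse vascular smooth muscle cells (VSMCs). Members were taken by gene symbol alone, as every row of the deposited promoter table named Prl, Prl followed by a digit, Psg followed by a digit, or Ceacam followed by a digit. This gave 44 of the 26354 promoters listed, with 20 Prl, 10 Psg and 14 Ceacam promoters. Prl2c2, Prl7d1 and Ceacam1 were not analysed here. The chromatin came from the medial layer of aortas of male C57Bl/6J mice, taken straight from the tissue after fat, adventitia and endothelium had been stripped by hand, and fixed without culture. Of 2 experiments numbered v102 and v134, each gave 1 library of H3K9me2 chromatin immunoprecipitation (ChIP) and 1 of input, the sheared chromatin before any immunoprecipitation. No treatment or genotype was compared, so each comparison sets the ChIP libraries against the inputs or sets promoters beside each other. The study's methods call the ChIP experiments independent, but the labels do not tie them to animals, so no error can be read as a spread between animals. An SD with n = 2 describes the spread between the 2 experiments, and an SE comes from the model fitted to the counts.

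H3K9me2, dimethylation of lysine 9 on histone H3, is deposited mainly by the methyltransferases EHMT2 and EHMT1 and marks broad domains of silent chromatin. Prolactin itself is a pituitary hormone of lactation. In rodents its gene has expanded by duplication into a family that trophoblast and decidua secrete during pregnancy, among them the placental lactogens, which act through the prolactin receptor. The pregnancy-specific glycoproteins are immunoglobulin-like proteins that trophoblast secretes in large amounts. They are close relatives of the CEACAM proteins, cell adhesion molecules and receptors of which several are also trophoblast products in the mouse.

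All positions refer to GRCm38. The 20 Prl promoters lay in 1 cluster on chromosome 13, with start sites from 27057570 to 28142484 (1085 kb). All 10 Psg promoters and 8 Ceacam promoters were interspersed on chromosome 7 between start sites 16675705 (Ceacam15) and 18821607 (Psg17), a stretch of 2146 kb called here the Psg locus. The other 6 Ceacam promoters lay further along chromosome 7, with Ceacam16, Ceacam19 and Ceacam20 within 104 kb of each other and Ceacam10, Ceacam2 and Ceacam18 on their own. No 2 kb member window overlapped the window of another listed promoter with a matched position.

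Sequences around the start sites are shown for Prl, for the highest and lowest Prl and Ceacam members and for the highest Psg member, to let the promoters be compared with their H3K9me2 values. The lowest Psg member, Psg16, was not matched to a sequence. Each is a run of 300 bases, 250 before the RefSeq start (GRCm38.p6) and 50 from the start on, 5′ to 3′ on the gene's own strand. Capitals mark the matches to 3 motifs, searched on both strands. TATAAA is the core of the box that binds the TATA-binding protein. AGATAA is a motif of the GATA family of zinc finger factors, some of them active in trophoblast. TGANTCA is the motif of the factor AP-1. The Psg17 sequence was added after its values were seen, as the closest relative of Psg25.

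Prl: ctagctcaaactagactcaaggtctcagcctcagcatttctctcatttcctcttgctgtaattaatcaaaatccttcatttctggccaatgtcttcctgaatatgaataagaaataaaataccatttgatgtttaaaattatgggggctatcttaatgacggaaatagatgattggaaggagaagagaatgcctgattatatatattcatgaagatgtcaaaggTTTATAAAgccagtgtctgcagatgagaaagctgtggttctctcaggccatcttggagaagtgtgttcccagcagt
Prl3d3: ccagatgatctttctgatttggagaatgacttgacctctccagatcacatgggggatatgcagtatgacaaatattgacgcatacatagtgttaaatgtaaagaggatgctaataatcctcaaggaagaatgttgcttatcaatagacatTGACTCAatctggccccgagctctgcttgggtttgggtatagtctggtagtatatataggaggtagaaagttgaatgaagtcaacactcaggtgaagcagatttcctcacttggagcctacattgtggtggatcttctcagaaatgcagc
Prl8a8: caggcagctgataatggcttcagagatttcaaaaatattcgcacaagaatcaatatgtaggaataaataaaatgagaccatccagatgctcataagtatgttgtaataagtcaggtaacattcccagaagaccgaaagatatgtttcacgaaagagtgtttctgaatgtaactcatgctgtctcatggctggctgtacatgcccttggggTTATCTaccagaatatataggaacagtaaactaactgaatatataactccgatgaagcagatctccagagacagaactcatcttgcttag
Psg25: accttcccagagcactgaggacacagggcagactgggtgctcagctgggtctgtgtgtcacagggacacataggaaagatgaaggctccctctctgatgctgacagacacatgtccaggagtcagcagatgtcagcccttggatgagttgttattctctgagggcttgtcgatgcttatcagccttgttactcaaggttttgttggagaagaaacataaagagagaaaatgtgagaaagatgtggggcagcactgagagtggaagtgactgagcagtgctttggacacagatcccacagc
Psg17: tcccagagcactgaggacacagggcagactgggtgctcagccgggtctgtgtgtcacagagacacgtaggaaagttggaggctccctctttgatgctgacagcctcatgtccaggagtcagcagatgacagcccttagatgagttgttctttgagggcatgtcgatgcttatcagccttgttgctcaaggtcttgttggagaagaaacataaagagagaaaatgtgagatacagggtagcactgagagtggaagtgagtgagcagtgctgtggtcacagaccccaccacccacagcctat
Ceacam11: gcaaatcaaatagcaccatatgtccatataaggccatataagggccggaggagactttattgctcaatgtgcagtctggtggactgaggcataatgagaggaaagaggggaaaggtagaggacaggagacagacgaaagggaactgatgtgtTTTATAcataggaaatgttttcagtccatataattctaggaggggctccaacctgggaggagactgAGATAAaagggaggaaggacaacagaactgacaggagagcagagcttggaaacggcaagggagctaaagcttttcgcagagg
Ceacam15: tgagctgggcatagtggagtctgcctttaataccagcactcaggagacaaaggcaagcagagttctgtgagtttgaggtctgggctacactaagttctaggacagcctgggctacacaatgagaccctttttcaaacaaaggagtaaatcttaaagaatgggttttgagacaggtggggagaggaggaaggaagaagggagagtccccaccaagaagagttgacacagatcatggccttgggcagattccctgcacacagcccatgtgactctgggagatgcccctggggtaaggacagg

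These lie at chr13:27057320-27057619 (Prl, plus strand), chr13:27156544-27156843 (Prl3d3, plus), chr13:27513168-27513467 (Prl8a8, minus), chr7:18532178-18532477 (Psg25, minus), chr7:18821542-18821841 (Psg17, minus), chr7:17971917-17972216 (Ceacam11, plus) and chr7:16675656-16675955 (Ceacam15, minus). In Prl, a TATAAA match on each strand overlapped, with first bases at positions -26 and -24 counted from the start as 0. The Prl3d3 sequence held 1 TGANTCA match, Prl8a8 held 1 AGATAA match, Ceacam11 held 1 TATAAA and 1 AGATAA match, and the 2 Psg sequences and Ceacam15 held none of these letters.

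Sequences were matched for 17 Prl, 7 Psg and 12 Ceacam promoters. TATAAA occurred in 5 of 17 Prl, 0 of 7 Psg and 4 of 12 Ceacam promoters, compared with 14.2% of all 27025 RefSeq promoters of this length. AGATAA occurred in 6, 1 and 7 of them (11.4% of all), and TGANTCA in 7, 1 and 1 (7.93% of all). Within a family, the median identity of aligned promoter pairs was 54.2% for Prl (136 pairs), 68.8% for Psg (21 pairs) and 50.0% for Ceacam (66 pairs), while pairs of 1 Prl and 1 Psg promoter had a median of 51.3%. The closest pairs were Psg17 with Psg25 (86.2%), Prl3d1 with Prl3d3 (85.4%) and Ceacam11 with Ceacam13 (80.0%).

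Over the listed promoters the ChIP libraries of v102 and v134 held 162233 and 229605 reads, and their inputs held 619100 and 1084349. Medians per promoter were 4 and 5 reads for ChIP and 20 and 37 for input, which leaves few reads behind a single ratio. Mitochondrial promoters took 14.3% and 7.53% of the input reads and at most 0.200% of the ChIP reads. H3K9me2 does not report expression, so the cell type could be checked only through the mark. Myh11, the smooth muscle myosin heavy chain, had 0 ChIP reads in both experiments against 19 and 41 input reads. Acta2, Tagln and Cnn1 lay at the 25.9, 31.1 and 10.5 percentiles. The endothelial gene Pecam1 was at the 21.9 percentile and Cdh5 at the 53.6, while the leukocyte gene Ptprc was at the 92.3 percentile. Of the study's controls, Actb (low) had 0 and 1 ChIP reads against 31 and 53 input reads. Magea2 (high) had 3 and 7 against 6 and 16, at the 83.9 percentile. The edgeR test described below called Myh11, Pecam1 and Actb below input and Ptprc above. It did not call Magea2 (adjusted p = 0.170), Acta2, Tagln, Cnn1 or Cdh5. In bulk tissue, a larger share of cells carrying the mark and more of the mark per cell cannot be told apart.

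All 3 families lay high among promoters, and the Prl family was the most even. The quasi-likelihood test of edgeR, adjusted by Benjamini-Hochberg over all 26354 promoters, called 18 of 20 Prl, 5 of 10 Psg and 7 of 14 Ceacam promoters above input (adjusted p under 0.05), compared with 18.6% of all promoters. Above input means more ChIP reads, relative to input, than a typical promoter had. None was called below input, where 17.0% of all promoters were. At an unadjusted p under 0.05, edgeR placed 2 Ceacam promoters below input, a count for which no share over all promoters is given. DESeq2 placed none of the 44 there by adjusted or unadjusted p, with 9 adjusted p-values undefined. By adjusted p it called only 29 of all 26354 promoters below input, so finding none says little about these members. The log2 ratio, computed in each experiment as ChIP over input reads, each scaled to its library's total after adding 1 read, was averaged over both experiments and ranked. Its median was 1.64 in the Prl family, 1.52 in Psg and 1.21 in Ceacam, compared with -0.31 over all promoters. The median percentiles were 91.5, 89.6 and 84.8. Promoters that reached the top quartile in v102 and also in v134 numbered 18 for Prl, 7 for Psg and 7 for Ceacam. Of all promoters, 17.8% met both conditions.

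**Figure D1:**
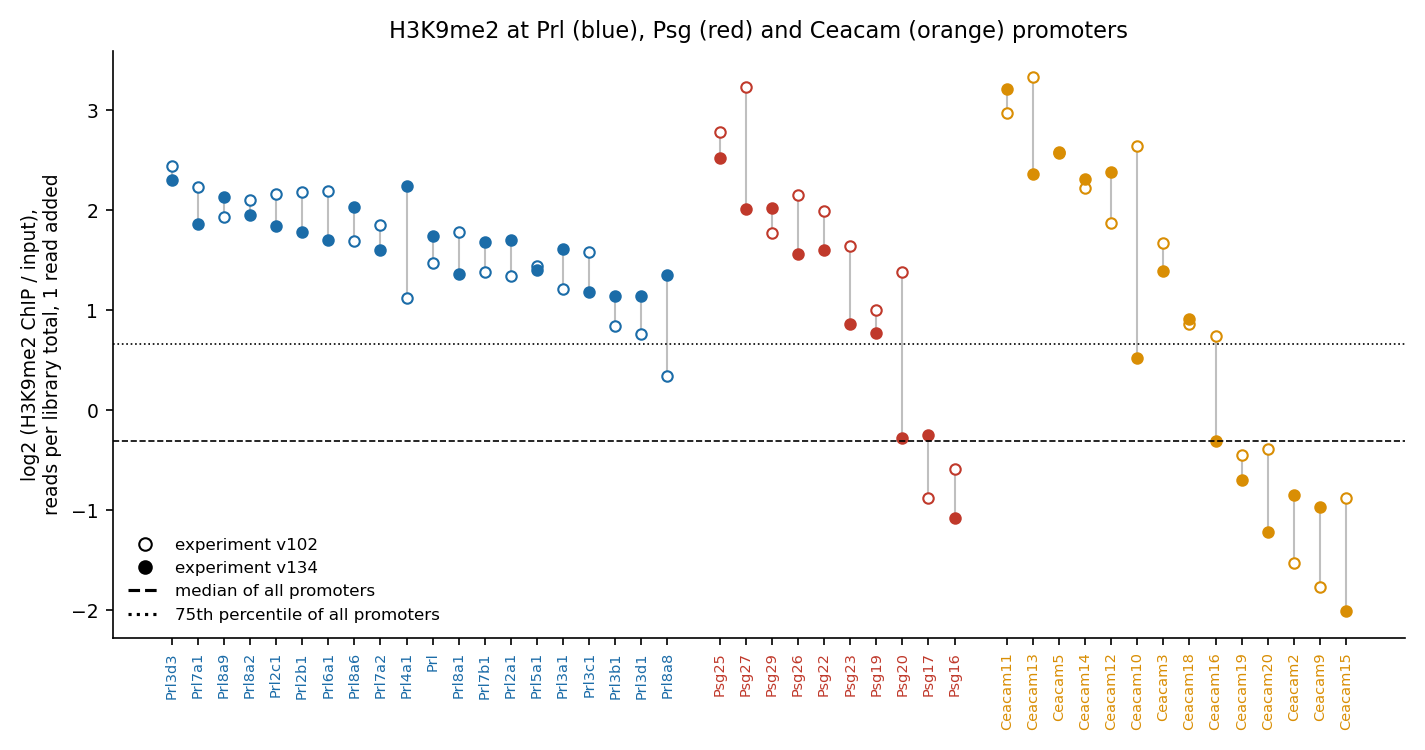
Log2 ratio of H3K9me2 ChIP to input reads (vertical axis) at each of the 44 promoters (horizontal axis), ordered within each family by the mean, with open circles for experiment v102, filled circles for v134, and the median (dashed, -0.31) and 75th percentile (dotted, 0.66) of the mean ratio over all promoters. The Prl family spans mean values from 0.85 to 2.38, while Psg and Ceacam reach from below the median to 2.65 and 3.09.

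The families differed in spread more than in level. The SD of the mean log2 ratio among members was 0.41 for Prl, 1.21 for Psg and 1.67 for Ceacam. When the reads of a family were pooled, ChIP reads exceeded input reads, per library total, 3.11-fold in experiment v102 and 3.22-fold in v134 at Prl promoters. The values were 3.52-fold and 2.50-fold for Psg and 3.16-fold and 2.79-fold for Ceacam. The order of the families thus changed between the experiments, and the differences between their means of 3.16 ± 0.08, 3.01 ± 0.72 and 2.98 ± 0.26 (SD, n = 2) were within the spread of the Psg value. The families were measured in the same 2 experiments, and a two-sided exact permutation test paired by experiment cannot go below p = 0.5 with 2 pairs, so no test between families was made. Between the experiments, Spearman rho of the log2 ratios was 0.78 across the 44 members and 0.69 across all promoters, both from the same 4 libraries.

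The Prl promoter itself, of the pituitary hormone gene (ENSMUSG00000021342.14, chromosome 13, 27057570 to 27065205, plus strand), had 15 ChIP and 21 input reads in v102 and 28 and 40 in v134. The deposited ratio (ChIP reads of both experiments over input reads of both, not scaled for depth) was 0.705 (95% Wilson interval 0.478 to 1.04, counting error only), against a median of 0.162 over all promoters. Its log2 ratio was 1.61 ± 0.19 (SD, n = 2), at the 91.0 percentile, and edgeR gave a log2 fold change over input of 1.75 (SE 0.38, adjusted p = 7.32e-05), that is 3.36-fold. Prl thus sat in the middle of its family, with 10 members above it and 9 below.

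Prl3d3, of the placental lactogen I subgroup, was the highest Prl member. It had 9 and 22 ChIP reads against 6 and 21 input reads and a log2 ratio of 2.45 in v102 and 2.30 in v134, with an edgeR log2 fold change of 2.46 (SE 0.47, adjusted p = 4.79e-06). Of its 2 kb window, 83.5% began a 75-base sequence that occurs once in the genome, the lowest share among Prl members, and how reads matching several places were treated is not given in the sources used here. Prl3d1, placental lactogen I, with a promoter 85.4% identical to that of Prl3d3 in the 300 bases compared, had 3 and 6 ChIP reads against 8 and 14 input reads. Its edgeR log2 fold change of 0.96 (SE 0.68, adjusted p = 0.258) did not pass the test. Prl3b1, placental lactogen II, had 7 and 13 ChIP reads against 16 and 29 input reads and was not called either (log2 fold change 1.08, SE 0.49, edgeR adjusted p = 0.0679). Both uncalled promoters still lay at the 80.7 and 81.4 percentiles, so the lactogen genes held the top of the family and 2 of its lowest 3 places.

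Prl7a1, Prl8a9 and Prl8a2 came next after Prl3d3, with mean log2 ratios of 2.05, 2.03 and 2.03. Prl8a2, decidual prolactin-related protein, had 17 and 31 ChIP reads against 15 and 38 input reads, and edgeR gave 4.37-fold over input (log2 fold change 2.13, SE 0.38, adjusted p = 7.17e-07). Prl8a8 was the lowest of the family. Its log2 ratio was 0.35 in v102, from 5 ChIP and 17 input reads, and 1.35 in v134, from 19 and 36. Its edgeR call (adjusted p = 0.0408) was lost when experiment entered as a replicate block (0.0977) and with library totals (0.0798), and DESeq2 gave 0.228. Over the family the log2 ratio reached from 0.35 to 2.45 in v102 and from 1.14 to 2.30 in v134, and all 20 promoters lay above the median promoter in both experiments.

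The Psg promoters covered a wide range, with mean log2 ratios from 2.65 to -0.84. Psg25, the highest, had 35 and 43 ChIP reads against 19 and 35 input reads, a deposited ratio of 1.44 (95% Wilson interval 1.02 to 2.04) and an edgeR log2 fold change of 2.79 (SE 0.35, adjusted p = 4.21e-13). Psg27, its neighbour at 35.0 kb, had 31 and 28 ChIP reads against 12 and 33 input reads (log2 fold change 2.69, SE 0.37, edgeR adjusted p = 8.36e-11). Psg29 followed with 16 and 30 ChIP reads against 18 and 35 (log2 fold change 2.05, edgeR adjusted p = 2.50e-06). Psg26 and Psg22, the latter a major Psg transcript of early pregnancy, were also called above input at 3.69-fold and 3.75-fold.

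At the other end, Psg16 had 3 ChIP reads in each experiment against 22 and 39 input reads, a log2 ratio of -0.84 ± 0.35 (SD, n = 2). Psg17, whose product binds the tetraspanin CD9, had 1 and 4 ChIP reads against 13 and 27 input reads (edgeR log2 fold change -0.72, SE 0.75, adjusted p = 0.450). Psg17 lay at the 42.7 percentile and Psg25 at the 99.5 although their 300-base promoters, printed above, were the most alike of the 21 Psg pairs compared, which covered 7 of the 10 members. Psg20 divided by experiment, with 14 ChIP reads against 21 input reads in v102 and 6 against 39 in v134, log2 ratios of 1.38 and -0.27. Psg23 and Psg19 lay at the 85.7 and 79.5 percentiles without passing the test. At Psg23 the unique share of the window was 69.6%, the lowest of the 44 members.

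Ceacam11 had the highest mean log2 ratio of the 44 members and ranked 15 of the 26354 promoters by it. Its rank was 5 in v134 alone and 177 in v102 alone, where Ceacam13 (61) and Psg27 (82) ranked higher. It had 38 and 56 ChIP reads against 18 and 28 input reads, a deposited ratio of 2.04 (95% Wilson interval 1.44 to 2.90) and an edgeR log2 fold change of 3.27 (SE 0.35, adjusted p = 2.17e-17), that is 9.64-fold. Ceacam13, 37.8 kb away, had 28 and 34 ChIP reads against 10 and 31 (log2 fold change 2.89, SE 0.38, edgeR adjusted p = 3.91e-12). Ceacam5 had 21 and 28 against 13 and 22 (log2 fold change 2.73, SE 0.40, edgeR adjusted p = 8.77e-10), with log2 ratios of 2.58 and 2.57 in the 2 experiments.

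The lowest Ceacam promoters had almost no ChIP reads. Ceacam15 had 1 and 0 ChIP reads against 13 and 18 input reads, Ceacam9, a trophoblast gene, had 0 and 3 against 12 and 36, and Ceacam2, an adhesion molecule of epithelia, had 0 and 1 against 10 and 16. None of these 3 passed the test (edgeR adjusted p = 0.0674, 0.0960 and 0.109). Ceacam15 was called below input only when library totals replaced TMM scaling (edgeR adjusted p = 0.0475). Ceacam16, a protein of the tectorial membrane of the inner ear, had 10 and 5 ChIP reads against 24 and 34 and was not called (edgeR adjusted p = 0.648). Ceacam10, a product of the seminal vesicle, was called (log2 fold change 1.81, SE 0.50, edgeR adjusted p = 0.00230), but the experiments were far apart. It had 17 ChIP reads against 10 input reads in v102, at the 98.4 percentile, and 6 against 22 in v134, at the 72.3 percentile.

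Pooled H3K9me2 of the Ceacam family differed by position, although single members went against it. The 8 Ceacam promoters within the Psg locus had pooled ChIP over input of 4.51-fold in v102 and 4.23-fold in v134, and 6 of them were called above input. The 6 on the rest of chromosome 7 had 1.52-fold and 0.744-fold. Of these 6, Ceacam10 was the 1 called (16.7%), near the share of 18.6% over all promoters. Within each experiment the locus members thus had the higher pooled value. The lowest members of the family, Ceacam15 and Ceacam9 at the 17.5 and 19.3 percentiles, nevertheless lay within the locus and ranked below all 6 of the others, while Ceacam10, outside it, was at the 90.7 percentile.

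Along the Psg locus, the promoters above input formed a run. From Ceacam3 to Psg27 (1417 kb), a stretch chosen after the values were seen, all 10 members were called above input, at the 90.0 to 99.9 percentiles. Their pooled ChIP over input was 5.71-fold and 4.86-fold in the 2 experiments. The 4 listed promoters of other genes within this run were called above input as well. These were Gm6065, Gm5155, Igfl3 and Mill1, at the 99.7, 99.8, 95.6 and 83.1 percentiles. Among the 8 members of the locus outside the run, only Psg22 was called (12.5%, compared with 18.6% of all promoters). Their pooled ChIP over input was 1.72-fold and 1.13-fold. Since the run was chosen on these values, its contrast with the other members is a description and not a test.

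The promoters before the run were mostly low. Between Ceacam9 and Psg16 lay 14 promoters of other genes, among them Calm3, a calmodulin gene, and Strn4. Their median percentile was 22.7, with a range from 0.988 to 80.9 (Ccdc8). The edgeR test called 0 of them above input, compared with 18.6% of all promoters, and 5 below, compared with 17.0%. At an unadjusted p under 0.05, edgeR placed 1 of these above input and DESeq2 none. Of the 5 nearest promoters before the locus and the 5 after it, edgeR called 0 above input by adjusted or unadjusted p, and DESeq2 likewise called none, although 8 of these 10 adjusted p-values were undefined there. On each side 1 of 5 was called below, near the share of 17.0% over all promoters. With 18.6% of all promoters called above, 0 of 5 on a side cannot by itself mark a border. The percentiles of these neighbours ran from 5.12 to 63.6 before the locus and from 10.6 to 76.7 after it. After the run, the level went down unevenly over members of the family, with Psg23, Psg20, Psg22, Psg19 and Psg17 in this order at the 85.7, 72.6, 93.5, 79.5 and 42.7 percentiles.

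The Prl cluster had mixed flanks, to be set against 18.6% of all promoters called above input and 17.0% below. Of the 5 nearest promoters before it, 4 were called above input (Nrsn1, 1700092E19Rik, Gm11353 and Hdgfl1), and their median percentile with Gm11351 was 94.1. The only other promoter within it, 4930511O05Rik, was also called. After Prl5a1, 0 of 5 were called above by edgeR's adjusted p and 1 by its unadjusted p (DESeq2 none), and Cdkal1 was called below. The nearest of these promoters, 2610307P16Rik, lay 1828 kb from Prl, so the far border of the high region could not be placed with promoter counts.

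**Figure D2:**
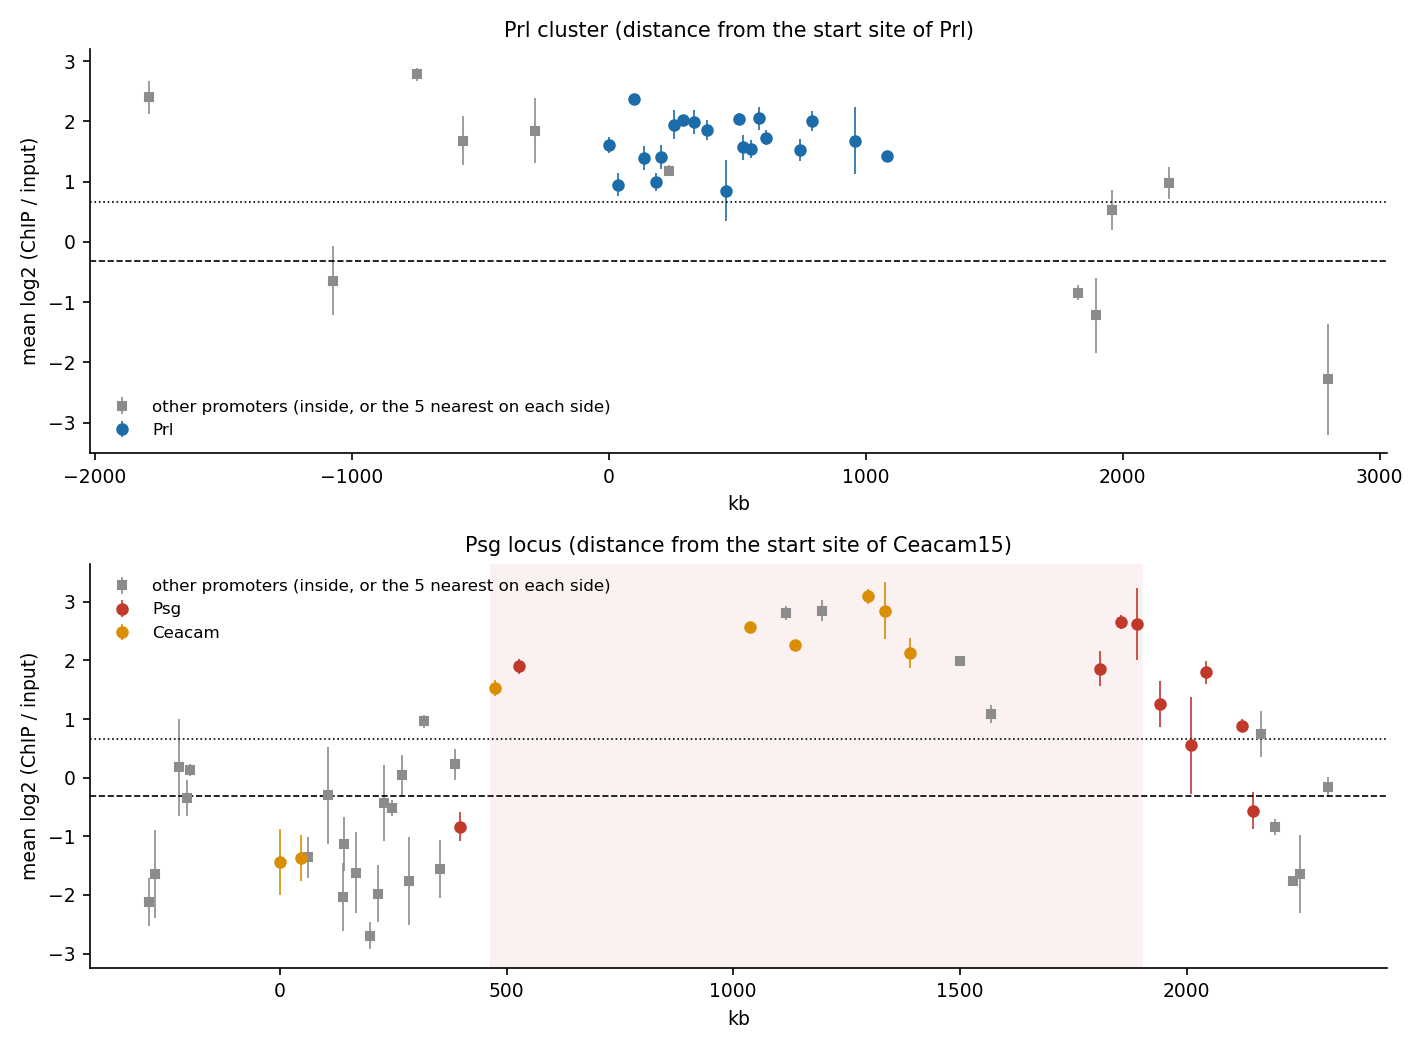
Mean log2 ratio of H3K9me2 ChIP to input (vertical axes) against distance in kb (horizontal axes) from the start site of Prl (upper panel) and of Ceacam15 (lower panel), with bars reaching to the values of both experiments, the median (dashed) and the 75th percentile (dotted) of all promoters. All 20 Prl promoters lie above the dotted line, and in the shaded stretch from Ceacam3 to Psg27 all 10 members and the 4 other promoters lie above it too.

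The families also differed in base composition, which the choice of members did not use. The median GC content of the 2 kb windows was 35.8% for Prl (range 32.9% to 40.7%), 47.3% for Psg and 49.6% for Ceacam, compared with 50.9% over 22329 promoters with a matched position. Median numbers of CpG dinucleotides in the windows were 9, 7 and 13, against 56. Repeats covered a median of 13.7% of the Psg and 20.5% of the Ceacam windows, against 13.9%, and from 6.95% to 47.7% of the Prl windows. Across promoters, H3K9me2 over input fell with GC content, with a Spearman rho of -0.55 over 22299 promoters that share the same libraries. Within the families, this rank correlation was -0.77 in Ceacam (n = 14), -0.19 in Psg (n = 10) and 0.19 in Prl (n = 20).

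When the GC trend of the promoters outside the families was removed, the ranks of Prl and of the other families moved apart. Ranks after removal are among the 22299 non-mitochondrial promoters with a matched position, and ranks before it among all 26354. The median percentile of the Prl promoters went from 91.5 to 69.6, and 8 of 20 stayed at or above the 75th percentile. Those of Psg and Ceacam went from 89.6 to 92.2 and from 84.8 to 87.6, with 7 of 10 and 9 of 14 at or above it. With the trend removed, 4 Prl promoters were in the top quartile of both experiments at once. Prl8a2 had the highest remaining rank of its family, at the 90.4 percentile, Prl3d3 was at 86.1 and Prl3d1 at 39.7. All 10 members of the run from Ceacam3 to Psg27 stayed at the 94.3 percentile or above. The promoters of other genes between Ceacam9 and Psg16 then ranged from the 4.44 percentile (Dact3) to the 83.3 (Ccdc8), with Calm3 at 68.4. How far GC content itself, rather than what goes with it, accounts for the rank of the Prl promoters was not tested.

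**Figure D3:**
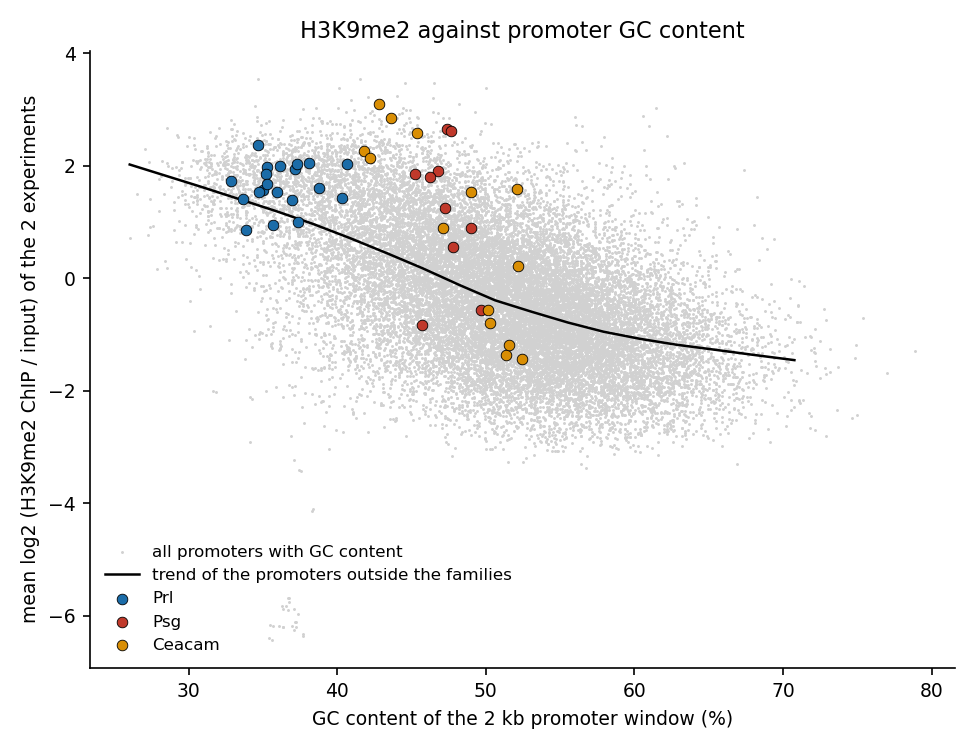
Mean log2 ratio of H3K9me2 ChIP to input (vertical axis) against GC content of the 2 kb window in percent (horizontal axis), for all promoters with a matched position (grey), Prl (blue), Psg (red) and Ceacam (orange), with the trend fitted to promoters outside the 3 families (line). Most Prl promoters, at 32.9% to 40.7% GC, lie above the line, with Prl8a8, Prl3d1 and Prl3b1 below it. Many Psg and Ceacam promoters lie far above it, while others, such as Psg16, Ceacam9 and Ceacam15, lie below.

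**Figure D4:**
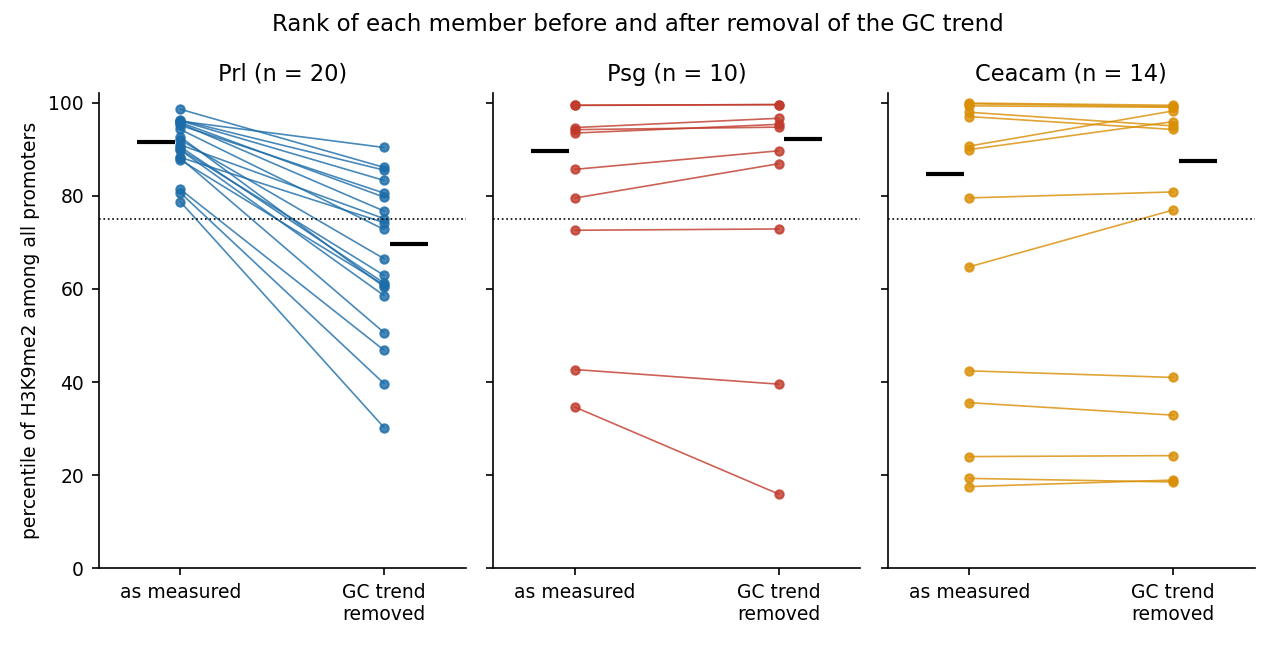
Percentile of H3K9me2 (vertical axis) for each member as measured and after removal of the GC trend (horizontal axis), 1 panel for each family, with medians as black bars and the 75th percentile dotted. The first is among all 26354 promoters, the second among the 22299 non-mitochondrial promoters with a matched position. The median falls from 91.5 to 69.6 in Prl and moves to 92.2 in Psg and 87.6 in Ceacam.

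Placental cathepsin, Tpbpa and Tpbpb promoters were high as well, and most prolactin signalling genes were low. Of 16 listed genes of trophoblast, 15 were in the table and 11 were called above input by edgeR (18.6% of all promoters), with a median percentile of 94.1 (50 over all promoters). These were all 8 placental cathepsins counted (Ctsj, Ctsm, Ctsq, Ctsr, Cts3, Cts6, Cts7, Cts8), the trophoblast genes Tpbpa and Tpbpb, and the imprinted gene Peg10. Tpbpa, a marker of the spongiotrophoblast, had 37 and 42 ChIP reads against 9 and 43 input reads and lay at the 99.9 percentile. Gcm1, Syna, Hand1 and Ascl2, which control or carry out trophoblast differentiation, were not called in either direction by adjusted p. They lay at the 44.3, 58.5, 16.1 and 40.5 percentiles, so apart from the cathepsins, Tpbpa and Tpbpb only Peg10 was called. Positions were not compared for this list, so any genes of a shared cluster were counted singly. By unadjusted p, edgeR placed 1 of the 15 below input and DESeq2 none, with no share over all promoters given for either.

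Of 8 listed genes of prolactin and growth hormone signalling, 5 were called below input (Ghr, Jak2, Stat5b, Cish and Socs2), where 17.0% of all promoters were. The list included growth hormone itself (Gh), which lay at the 29.1 percentile and was not called. None of the 8 was called above by edgeR's adjusted p, where 18.6% of all promoters were. The unadjusted p of edgeR and of DESeq2 placed none above either, and all 8 adjusted p-values of DESeq2 were undefined. The median percentile was 7.59. Stat5b, a transcription factor activated by the prolactin receptor, had 0 ChIP reads in both experiments against 18 and 40 input reads (edgeR adjusted p = 0.000622). The receptor gene Prlr had 5 and 4 ChIP reads against 15 and 47 and lay at the 51.7 percentile.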

How the data were processed

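H3K9me2 ChIP and input reads from 4 libraries were used. The authors trimmed paired-end reads (Cutadapt 1.9.1 per the processing notes), aligned them to GRCm38 (Bowtie2 2.2.7), counted reads within 1 kb of each start site with SeqMonk and deposited raw counts with their summed ChIP/input ratio. Their annotation release and treatment of duplicate and multiply matching reads are not given in the sources used here. The members and lists were chosen with earlier results of these data known. Named promoters were Prl, the 3 highest and 3 lowest of each family by mean log2 ratio, the lactogens, and Ceacam2, Ceacam10 and Ceacam16; all others named were chosen after their values were seen.

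Counts of all 26354 promoters were fitted with edgeR 4.0.16 (R 4.3.3, TMM, quasi-likelihood, Benjamini-Hochberg). The same fit was run on simulated counts with few changed promoters and no difference between experiments, so that run cannot show how the fit behaves on these data. DESeq2 1.42.0, library totals, an experiment block, a minimum of 20 reads in each input and omission of mitochondrial promoters were alternatives. Log2 ratios used a pseudocount of 1 read. Wilson intervals cover counting error only, since reads are not independent molecules. Positions came from GENCODE M21 gene 5′ ends, matching 22329 symbols (84.7%) and all 44 members, and may differ from the authors' start sites. The GC trend was a lowess fit (fraction 0.3). Uniqueness was counted over 75-base words of the genome. ChIP and input libraries are paired by experiment, as the study's methods state. The differences between experiments in ChIP and in input had a correlation of 0.10, and chi-square per degree of freedom of 1.52 (ChIP) and 1.28 (input) showed no repeated library.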

Additional observations from a re-analysis of the deposited data

How the results depend on the processing

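With the experiment number as a block, 17 Prl, 5 Psg and 7 Ceacam promoters were called above input, the loss being Prl8a8, and no other member's call changed under the block. DESeq2 gave 16, 5 and 7, losing Prl8a8 and Prl5a1 (adjusted p = 0.0606). Library totals gave 17, 5 and 7 above and 1 Ceacam below. They moved the all-promoter median log2 fold change from -0.35 to -0.50. With at least 20 reads in each input, 13 members could be fitted and 5 Prl, 1 Psg and 3 Ceacam were called. For these the median percentile was 95.9 (Prl) and 81.0 (Psg), the numbers in the top quartile of both experiments were 5, 1 and 3, and the pooled folds were 3.70 (Prl) and 3.27 (Ceacam). Without mitochondrial promoters the pooled folds were 2.83 (Prl) and 2.65 (Ceacam). With members of at least 95% unique sequence they were 3.08 and 3.46, and the median Ceacam percentile was 93.5. With the GC trend removed, the Prl median was 69.6 and 4 Prl promoters were in the top quartile of both experiments. The fewer promoters fitted account for the lower counts; for the other shifts the cause was not tested. Leaving out each experiment gave median percentiles from 89.5 to 92.5 (Prl), 84.9 to 90.5 (Psg) and 76.3 to 82.8 (Ceacam), pooled folds from 3.11 to 3.22, 2.50 to 3.52 and 2.79 to 3.16, and 18 to 20, 7 to 8 and 7 to 8 promoters in the top quartile. Without a replicate each arm has 1 library with no residual degrees of freedom, so edgeR was not run. Over all promoters edgeR called 4902 above and 4484 below input, the block 4173 and 2187, library totals 4303 and 5677, and DESeq2 3026 and 29 with 17372 adjusted p-values undefined. Calls above made up 52.2% of all calls, against 65.6%, 43.1% and 99.1%. At promoters with 0 or 1 ChIP reads, such as Ceacam15, a pseudocount of 5 reads gave a mean log2 ratio of 0.19 in place of -1.44. Depth, a median of 4 and 5 ChIP reads, limits single promoters, and positions assume the matched start sites.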
